A study of Drosophila melanogaster with 9 samples.

Results

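Among the replication start sites mapped in Drosophila S2 cells, 549 were listed from the shortest nascent strands alone. They are regions of gradient fraction 4, the short-fragment fraction, that overlapped no region listed from fraction 5 (middle-sized fragments) or fraction 6 (long fragments) by even 1 bp. They are called short-strand-only sites here. The rule also required a width under 4000 bp and a place on arm 2L before position 21000000, on 3L before 22500000, or anywhere on 2R or 3R. Of the 4505 fraction 4 regions, 2698 met the limits on width and place, and the 549 sites were 20.3% of those (95% Wilson interval 18.9 to 21.9). All 5 lists of the study together held 32247 regions.

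A replication origin is a place where the double helix is opened and copying starts in both directions. The leading strand there begins with an RNA primer, and the youngest leading strands are short and lie close to the start site. In the assay used, single-stranded DNA was sorted by size in a gradient, and strands without a primer were removed with lambda exonuclease. What survived was sequenced, and stretches rich in reads were called as origins. Longer nascent strands from the same origin reach farther from the start.

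The S2 cells were S2-DRSC, derived from embryos and resembling blood cells, and the Bg3 cells were ML-DmBG3-c2, derived from the larval nervous system. Each line was grown without further treatment named in the labels, in a medium of its own, so line and medium cannot be told apart. The fractions were taken from S2 cells only, with 2 libraries for each fraction. The pooled-fraction experiment had 2 biological replicates for each line, pooled into 1 list for S2 and 1 for Bg3. Chromosome 4, the X, the heterochromatic scaffolds and the excluded ends of 2L and 3L enter only the closing section.

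Each list gave positions on the dm3 build, and only the 2 pooled lists gave a value for each origin, the authors' efficiency, called strength here and counted in reads per kb of the origin. Strength times width, summed over each whole list, came to 42.1 M reads for S2 and 31.6 M for Bg3. The Bg3 products were not whole numbers of reads, so strengths are compared within a list only. The fraction lists carried no depth and no list carried a value for each replicate. Nothing below could therefore be tested over samples. Intervals are 95% intervals that treat regions as independent draws and cover counting error only, although neighbouring regions are not independent. No genome or annotation of dm3 was used, so sites are given by position and without genes or sequence.

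The sites were chosen by their width, their place and their lack of overlap with the other 2 fractions, and values of these are a description with no test. Width had a median of 494 bp (interval 465 to 510), with 391 and 681 bp at the quartiles and a range of 303 to 3325 bp. The 2149 remaining fraction 4 regions, which overlapped fraction 5, fraction 6 or both, had a median of 598 bp (583 to 614). The ratio of the medians was 0.826. Wider regions overlap others more often by construction. In all, 154 sites (28.1%) were narrower than 400 bp and 57 (10.4%) were at least 1000 bp wide.

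The regions nearest to each limit of the rule were these. The widest sites were on 3L at 16037319 to 16040643 (3325 bp) and on 3R at 25598851 to 25601828 (2978 bp), and just outside the width limit lay a single region, on 3L at 539345 to 545447 (6103 bp). The last sites before the limit on 2L started at 20830403 and 20978076, and the first regions beyond it at 21125434 and 21215004. On 3L the last sites inside started at 21745337 and 22411988, and the first beyond at 22571975 and 22573175. The smallest gaps between a site and another fraction were 13 bp (2L at 2116443) and 16 bp (3L at 17508002). The smallest overlaps among the regions left out were 50 bp (2L at 5241087) and 119 bp (3R at 25703575), and 1 of the 2149 shared regions overlapped by 100 bp or less. Overlaps of 100 bp or less were thus rare on the shared side, but the number of sites depended on the overlap rule. It was 490 when a gap of up to 500 bp to fraction 5 or 6 counted as shared. When fraction 5 or 6 had to cover 50% of a region for it to count as shared, the number was 662.

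The sites were spread over all 4 arms. Arm 3R held 180, 2L 139, 2R 125 and 3L 105. Per Mb these were 6.45, 6.62, 5.91 and 4.67 sites, in the same order. As a share of the fraction 4 regions within the limits they made up 21.8% on 3R (19.1 to 24.7), 20.2% on 2L (17.4 to 23.4), 17.6% on 2R (14.9 to 20.5) and 22.2% on 3L (18.7 to 26.2). These intervals overlap, so the lower density on 3L went with fewer fraction 4 regions there in all, 21.0 per Mb against 29.6 to 33.7 on the other arms. The same rule turned around gave 914 sites held by fraction 5 alone, 21.5% of its 4251 regions (20.3 to 22.8), and 783 held by fraction 6 alone, 21.2% of 3691 (19.9 to 22.6). Sites of a single fraction were therefore about as common in each fraction.

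Most of the sites lay far from a fraction 5 or 6 region on the scale of their own width. The median gap was 5953 bp to fraction 5 (5087 to 6915), with quartiles of 1987 and 14475 bp, and 7316 bp to fraction 6 (6183 to 8205), with quartiles of 2452 and 16917 bp. To the nearer of the 2 it was 4621 bp (4070 to 5292). The nearer one was fraction 5 for 262 sites and fraction 6 for 275, with 12 ties. Only 59 sites (10.7%) had a gap of 500 bp or less to either, 99 (18.0%) had 1 kb or less, and 153 lay more than 10 kb from both.

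Even so the sites were nearer to the other fractions than positions on the arms in general. For each site, all positions were taken where a region as wide would have been clear of fractions 5 and 6, and the share of them within a given gap was computed exactly. Within 500 bp of fraction 5 lay 8.74% of sites and 3.78% of such positions, a ratio of 2.31. For fraction 6 the values were 5.83% and 3.32%, a ratio of 1.75. Within 5 kb the values were 45.2% and 33.1% for fraction 5, and 40.6% and 29.4% for fraction 6. At 50 kb the sites and the positions differed little, with 98.0% and 95.2% for fraction 5. No test was made of these descriptions, since the rule itself used the gap.

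**Figure D1:**
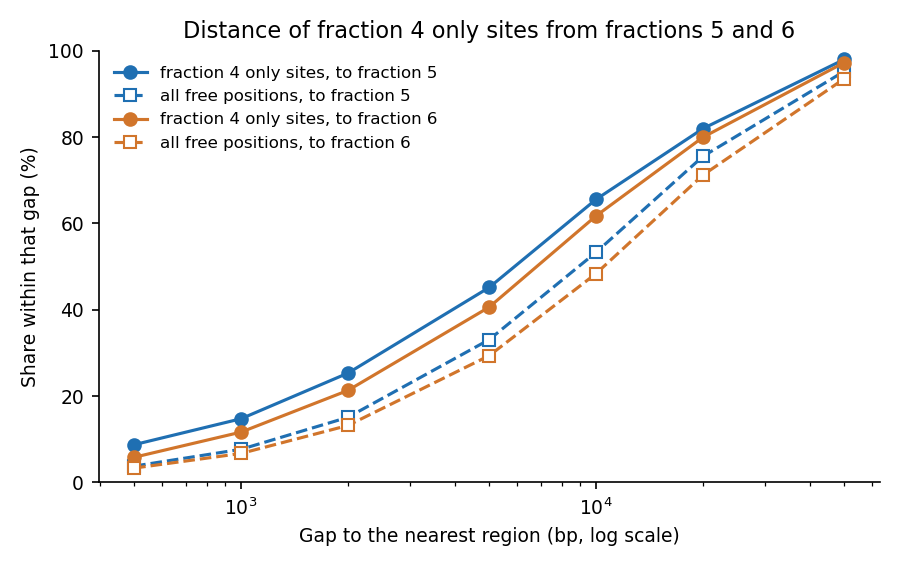
Share of short-strand-only sites (filled points, solid lines) and of all positions clear of fractions 5 and 6 (open squares, dashed lines) within a given gap of the nearest fraction 5 or fraction 6 region. Gap in bp on a log axis. At 5 kb the sites reach 45.2% for fraction 5 and the positions 33.1%.

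Neighbours within fraction 4 were as near for the sites as for the remaining regions. The median gap to the next fraction 4 region was 6558 bp (5408 to 7709) for the 549 sites and 6940 bp (6325 to 7621) for the 2149 others. From one site to the next the median was 43582 bp. Of 927 windows of 100 kb on the arms, 546 held no site, 268 held 1 and 35 held at least 3, which together held 125 sites.

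About 1 site in 2 was found again in a pooled list, which is the check that did not enter the rule. The S2 pooled list held 182 of the 549 sites, or 33.2% (29.3 to 37.2), where it held 64.6% of all fraction 4 regions within the limits. The Bg3 pooled list held 210, or 38.3% (34.3 to 42.4), where it held 48.6% of them. Either list held 286 sites, or 52.1% (47.9 to 56.2), against 75.4% of all fraction 4 regions, and both lists held 106, or 19.3% (16.2 to 22.8), against 37.8%. The remaining 263 sites were in fraction 4 and in no other list of the study.

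Fraction 4 regions shared with fraction 5 or 6 were recovered more often, and the difference was larger in S2 than in Bg3. The S2 list held 1561 of the 2149 shared regions (72.6%), so the sites were 39.5 percentage points lower, with an interval of -43.7 to -35.0. The Bg3 list held 1102 (51.3%), so the sites were 13.03 points lower (-17.5 to -8.39). Weighting the shared regions to the widths of the sites gave 72.7% in S2 and 49.8% in Bg3. The S2 shortfall was present in all 4 arms, from -32.9 points on 2R to -42.7 on 3R, and in all 5 width classes, from -19.0 points at 700 to 999 bp to -48.0 at 500 to 699 bp. In Bg3 the interval included 0 on 3L (-21.0 to 0.26) and in 3 of the width classes. Among regions of 1000 bp or more the Bg3 list held 56.1% of 57 sites and 58.1% of 446 shared regions, a difference of -1.93 points (-15.6 to 11.0).

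The partner fraction went with the recovery in S2. Fraction 4 regions found also in fraction 5 but not 6 were in the S2 list in 62.9% of 421 cases (58.2 to 67.4), and those found in all 3 fractions in 77.6% of 1623 (75.5 to 79.5). Regions found in fractions 4 and 6 but not 5 were few, and 35.2% of 105 were in S2 (26.8 to 44.7), a value whose interval overlaps that of the short-strand-only sites.

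**Figure D2:**
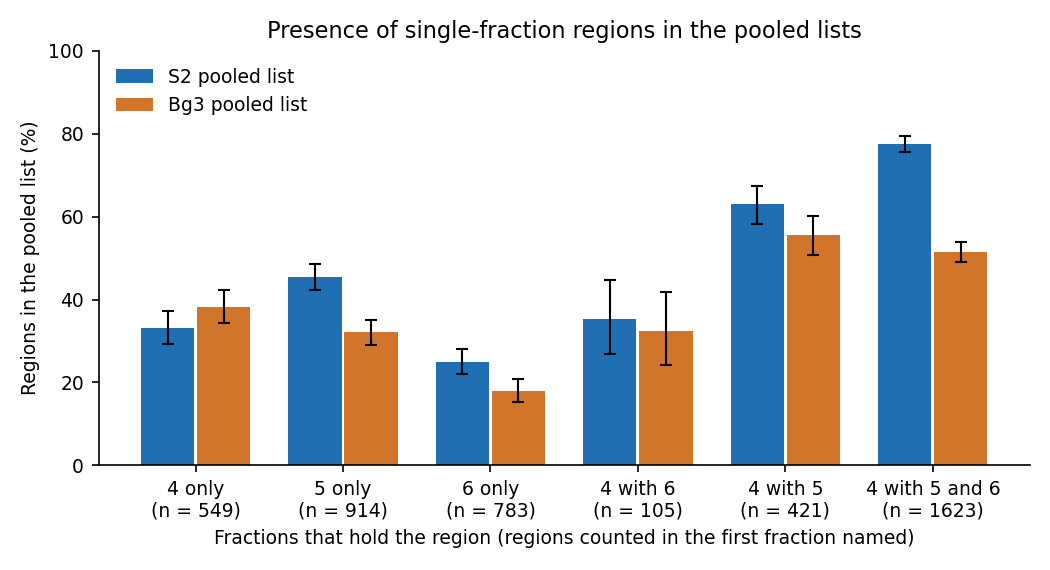
Percentage of regions found in the S2 pooled list (blue) and the Bg3 pooled list (orange), by the fractions that hold them. Bars are shares with 95% Wilson intervals, and n is the number of regions. Sites of fraction 4 alone have a Bg3 bar of 38.3% and an S2 bar of 33.2%, an order that turned to 31.1% and 31.7% when 50% of the site had to be covered.

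Sites of the other single fractions differed from these. Sites of fraction 5 alone were in the lists at 45.4% for S2 (42.2 to 48.6) and 32.1% for Bg3 (29.1 to 35.2), beside 63.7% and 42.0% of all fraction 5 regions within the limits. For fraction 6 alone the shares were 24.9% (22.0 to 28.1) and 17.9% (15.4 to 20.7), beside 59.2% and 37.4% of all fraction 6 regions. Short-strand-only sites were thus 12.3 points below fraction 5 sites in S2 (-17.3 to -7.10) and 6.19 points above them in Bg3 (1.16 to 11.3). They were above fraction 6 sites in both lists, by 8.25 points in S2 (3.31 to 13.2) and by 20.4 points in Bg3 (15.5 to 25.2). In Bg3 the interval of the difference from fraction 5 included 0 within each of the 5 width classes. In S2 that from fraction 6 included 0 in 4 of them, and the exception was 700 to 999 bp with 37.4 points (21.4 to 50.4). Weighting the sites of fractions 5 and 6 to the widths of fraction 4 sites left differences of -13.5 and 8.78 points in S2 and of 4.42 and 20.5 points in Bg3.

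The overlaps exceeded what the covered part of the arms would give. Of positions clear of fractions 5 and 6, 4.08% overlapped an S2 origin at the widths of these sites and 4.81% a Bg3 origin. The sites' shares were 8.13 and 7.95 times those values. For sites of fraction 5 alone the ratios were 11.99 and 7.59, and for fraction 6 alone 6.82 and 4.30. These ratios have no test.

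With an overlap of 1 bp, sites found in 1 line only were more often in the list of the other cell line. Although the fractions came from S2 cells, 104 sites were in the Bg3 list without being in the S2 list, and 76 were in the S2 list alone. Bg3 thus held 57.8% of the 180 sites found in 1 line (50.5 to 64.8), where among shared fraction 4 regions it held 22.5% of 835 (19.8 to 25.5). The lean to Bg3 depended on how presence was counted. When at least 50% of the site had to be covered the share was 49.1%, when 50% of both regions had to overlap it was 41.5%, and when only pooled origins at or above their median strength counted it was 43.8%. Under these 3 settings the S2 list held slightly more of the 549 sites than the Bg3 list, with 31.7% and 31.1%, 23.9% and 20.04%, and 22.0% and 19.9%. Elsewhere the share stayed above 50%, but at several settings its interval included 50%. Merging regions within 1 kb gave 53.7% (45.7 to 61.6), and regions of 600 bp or less 54.3% (45.3 to 63.1). Leaving out 2L, 3L or the first 2 Mb of 2R and 3R also gave such intervals. Leaving out 2R or 3R kept the interval above 50%. By arm, the counts in Bg3 alone and S2 alone were 31 and 16 on 3L, 25 and 16 on 2L, 22 and 19 on 2R, and 26 and 25 on 3R.

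**Figure D3:**
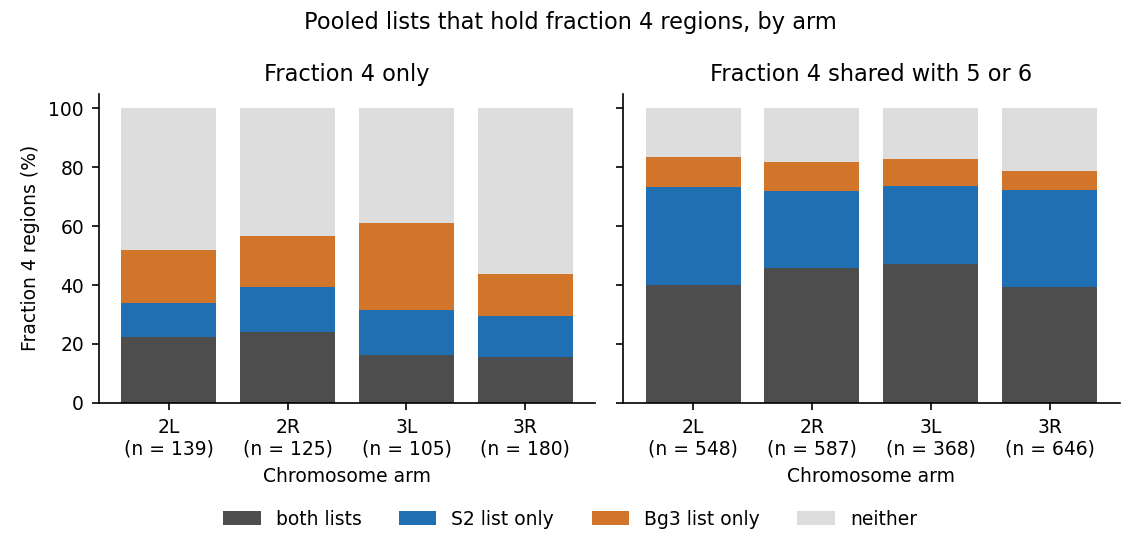
Percentage of fraction 4 regions on each arm that are in both pooled lists, in 1 of them or in neither, for short-strand-only sites (left) and for fraction 4 regions shared with fraction 5 or 6 (right). On 3L, 61.0% of the 105 sites are in a pooled list, against 43.9% of the 180 on 3R, and the share of S2-only regions is smaller on the left on every arm.

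The shares showed no graded trend with the gap to the other fractions, but the Bg3 share was highest under 1 kb. Among the 99 sites under 1 kb from fraction 5 or 6, 51 were in Bg3 (51.5%, 41.8 to 61.1) and 37 in S2 (37.4%, 28.5 to 47.2). The groups of 1 to 5 kb (188 sites) and 5 to 20 kb (193 sites) had 32.98% (26.7 to 39.98) and 37.3% (30.8 to 44.3) in Bg3. In S2 these groups had 31.4% (25.2 to 38.3) and 30.6% (24.5 to 37.4). Among the 69 sites at 20 kb or more, 25 were in Bg3 (36.2%, 25.9 to 48.0) and 27 in S2 (39.1%, 28.5 to 50.9). In Bg3 the interval of the nearest group lay above that of the 1 to 5 kb group and overlapped those of the farther groups. In S2 all intervals overlapped. No difference was tested. Median width was 646 bp in the nearest group and 427 bp in the farthest, and its part in the Bg3 share was not tested.

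The pooled S2 origins at these sites were strong. The 182 sites overlapped 181 S2 origins, with a median of 1840 reads per kb (1706 to 2035) and a range of 1064 to 5451. The 1521 S2 origins at shared fraction 4 regions alone had a median of 1911 (1872 to 1945), a ratio of 0.963 with an interval that included 1 (0.877 to 1.09). When 50% of both regions had to overlap, the ratio was 0.897 and its interval lay just below 1 (0.805 to 0.995). Origins at sites of fraction 5 alone had a median of 1505 (1481 to 1534) and those at sites of fraction 6 alone one of 1569 (1491 to 1631), and neither interval reached that of the short-strand-only sites. Origins in no fraction at all had a median of 1423 (1413 to 1434), and all 5444 S2 origins on the arms one of 1543. This is a comparison of list values with no test over samples. Of the 181 origins 10 also touched a fraction 5 or 6 region outside the site. The other 171 had a median of 1828 (1671 to 2002).

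The same was seen at the upper end of the S2 list. Its strongest 10.0%, those above the 90th percentile, were 545 of the 5444 origins on the arms. Among the 178 S2 origins that overlapped fraction 4 and neither other fraction, 47 were in it (26.4%, 20.5 to 33.3), beside 392 of 1367 among origins held by all 3 fractions (28.7%, 26.3 to 31.1). These 2 groups differed in width, with medians of 774 and 851 bp. Origins of 4000 bp or more count here but not in the width classes below. The list held 136 of them on the arms, with a median of 9291 reads per kb, and 1 was at a short-strand-only site. Among the 393 origins held by fraction 5 alone 6 were in it (1.53%, 0.702 to 3.29), and among the 166 held by fraction 6 alone 1 was (0.602%, 0.106 to 3.33). Origins held by fractions 5 and 6 without 4 had 26 of 589 (4.41%, 3.03 to 6.39).

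The strong S2 origins held by fraction 4 alone were mostly wide. Below 600 bp, 1 of 57 S2 origins held by fraction 4 alone was in the strongest 10.0%. From 600 to 999 bp it was 12 of 65 (18.5%, 10.9 to 29.6), and from 1000 to 3999 bp it was 33 of 55 (60.0%, 46.8 to 71.9). The 181 origins at short-strand-only sites gave 1 of 56, 13 of 67 and 36 of 57 in the same classes. From 600 to 999 and from 1000 to 3999 bp, origins held by all 3 fractions had 19.2% (16.0 to 22.8) and 38.9% (34.2 to 43.7). Origins held by fraction 5 alone had 1.64% (0.451 to 5.78) and 4.35% (1.20 to 14.5). Below 600 bp all 3 fractions had 6.65% (4.39 to 9.95), fraction 5 alone 0.889% (0.244 to 3.18) and fraction 4 alone 1.75% (0.310 to 9.29). Median strengths below 600 bp were 1587 reads per kb (1547 to 1628), 1426 (1392 to 1468) and 1440 (1375 to 1515) in that order. In this class fraction 4 alone was thus close to fraction 5 alone. Over all widths the contrast with fraction 5 alone was present on each arm. There fraction 4 alone gave 31.1% on 2L, 21.7% on 2R, 34.3% on 3L and 21.2% on 3R, and fraction 5 alone gave between 0 and 2.86%.

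**Figure D4:**
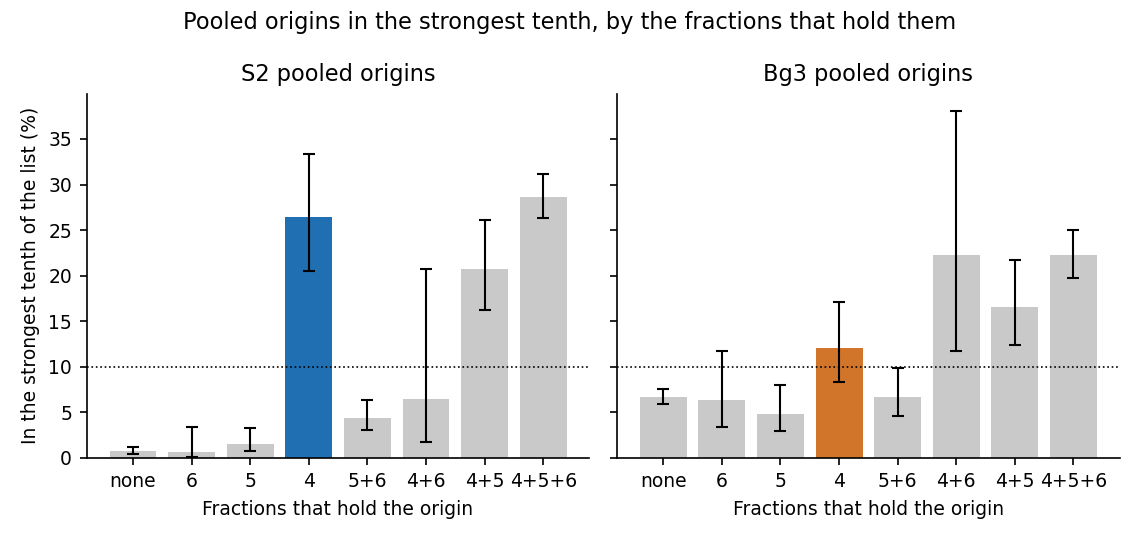
Percentage of pooled origins on the arms above the 90th percentile of their list, by the fractions that hold the origin, for S2 (left) and Bg3 (right). Bars are shares with 95% Wilson intervals, fraction 4 alone is coloured, and the dotted line marks 10%. In S2, fraction 4 alone reaches 26.4% and fractions 5 and 6 alone 1.53% and 0.602%.

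Sites at strong S2 origins were mostly found in Bg3 too, as were strong S2 origins in general. Of the 53 sites at an S2 origin above the 90th percentile, 45 were in the Bg3 list (84.9%, 72.9 to 92.1). Of the 72 sites at an origin between the median and the 90th percentile, 37 were (51.4%, 40.1 to 62.6), and of the 57 at a weaker origin, 24 were (42.1%, 30.2 to 55.0). Shared fraction 4 regions in the same classes were in Bg3 at 69.5% of 364 (64.6 to 74.0), 55.1% of 861 (51.7 to 58.3) and 55.7% of 336 (50.3 to 60.9). All S2 origins on the arms were there at 74.3%, 45.8% and 32.0%. In each class the separate intervals of the sites and of the shared regions overlapped, only narrowly above the 90th percentile. No interval of their difference was computed, and overlap alone does not show equal shares. The first group of sites was spread over the arms, with 16 sites on 2L, 13 on 2R, 12 on 3L and 12 on 3R, and its median gap to the nearer of fractions 5 and 6 was 4067 bp (2425 to 8777). The S2 origins grew wider with strength, with medians of 508, 777.5 and 1297 bp from the weakest to the strongest group, and the part of width in the Bg3 share was not tested.

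The site with the highest S2 strength was on 2L at 8041925 to 8042756. Its S2 origin reached 5451 reads per kb and its Bg3 origin 2864, and the nearest fraction 5 region was 21106 bp away and the nearest fraction 6 region 3672 bp. Next was 3L at 767758 to 769088 with 5381 reads per kb in S2, which missed the nearest Bg3 origin by 99 bp. The sites on 2L at 4227681 (4715 reads per kb in S2), 2R at 15329819 (4658) and 3R at 25870924 (4624) followed, all found in Bg3. These 5 sites were 832 to 1566 bp wide, and their S2 origins stood at the 96.6th to 97.0th percentile of the list. The last of them was also close to the other fractions, 221 bp from fraction 5 and 172 bp from fraction 6.

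Of the 106 sites in both pooled lists, 9 lay at origins above the 90th percentile of both. No such count is given here for the 914 shared fraction 4 regions in both lists, so the 9 cannot be called many or few. The first by S2 strength was the site on 2R at 15329819 to 15331016 just named, with 3173 reads per kb in Bg3. The others of the leading 5 were on 3R at 7041076 to 7042001 (4249 reads per kb in S2 and 3060 in Bg3), 2R at 20856142 to 20856946 (4126 and 3868), 2L at 18442556 to 18442912 (3947 and 3327) and 2R at 12473547 to 12474237 (3428 and 3141). The 2L site was 357 bp wide within an S2 origin of 1107 bp and lay 16895 bp from fraction 5 and 20805 bp from fraction 6. These are places where both cell lines had strong pooled signal and the 2 longer S2 fractions had no listed region.

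In position the pooled origins matched the sites closely. Centres lay a median of 90 bp apart for S2 (70.5 to 109) and 122.5 bp for Bg3 (95.5 to 148.5), against 83 and 93 bp for shared fraction 4 regions. At least 50% of the site was covered for 175 of the 182 sites in S2 and 174 of the 210 in Bg3, beside 1510 of 1561 and 866 of 1102 shared regions. S2 origins were a median of 1.31 times as wide as the site and Bg3 origins 1.10 times, against 1.28 and 0.929 times for shared regions.

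The Bg3 origins at these sites had ordinary strength. The 210 sites overlapped 213 Bg3 origins with a median of 2274 reads per kb (2184 to 2424), where all 5527 Bg3 origins on the arms had 2243. The 1095 origins at shared fraction 4 regions alone had 2402 (2366 to 2438), a ratio of 0.947 (0.896 to 1.02). Above the 90th percentile of the Bg3 list, which 10.0% of its origins passed, were 26 of the 216 origins held by fraction 4 alone (12.04%, 8.35 to 17.1), against 14 of 289 for fraction 5 alone (4.84%, 2.91 to 7.97) and 212 of 952 for all 3 fractions (22.3%, 19.7 to 25.0). The contrast between fractions 4 and 5 was thus in the same direction as in S2 and smaller. The intervals for fraction 4 and for fraction 6 alone (6.38%, 3.39 to 11.7) overlapped.

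Sites in both lists stood at stronger origins than sites in 1 list, in each line. In S2 the medians were 2232 reads per kb (2035 to 2546) for the 106 sites in both and 1611 (1493 to 1719) for the 76 in S2 alone. In Bg3 they were 2575 (2437 to 2658) for the 106 in both and 1999 (1864 to 2079) for the 104 in Bg3 alone. For S2 this is not particular to these sites. Of all S2 origins on the arms, 74.3% above the 90th percentile were in Bg3, and 32.0% of those up to the 50th. No such value is given here for Bg3 origins in general. The widths ran in opposite directions. In S2 the origins at sites in both lists were the wider, with 962 bp (844 to 1106) against 618.5 (539 to 720). In Bg3 those at sites in both lists were the narrower, with 606 bp (524 to 713) against 982.5 (688 to 1354).

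A group of wide and weak Bg3 origins lay under the sites missing from S2. Bg3 origins of 1000 to 3999 bp were 12.03% of that list. They held 43 of the 104 sites found in Bg3 alone (41.3%) and 20 of the 106 in both lists (18.9%). Wider origins meet more sites by construction, so 12.03% is not the share to expect, and no share of shared regions is given here. Median strength at the 43 sites was 1689 reads per kb (1623 to 1814), where all 665 Bg3 origins of these widths had 2500. Of the 43 sites, 33 were at origins below the 25th percentile of the list, as were 142 of those 665 origins. Of the 20 sites in both lists at Bg3 origins of these widths none was below the 25th percentile, and their median was 2986 (2734 to 3053). The width classes were chosen after the values were seen. Some sites shared an origin: 15 of the 210 sites in Bg3 lay with another site in 7 Bg3 origins, and 6 of the 182 in S2 lay in pairs in 3 S2 origins.

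**Figure D5:**
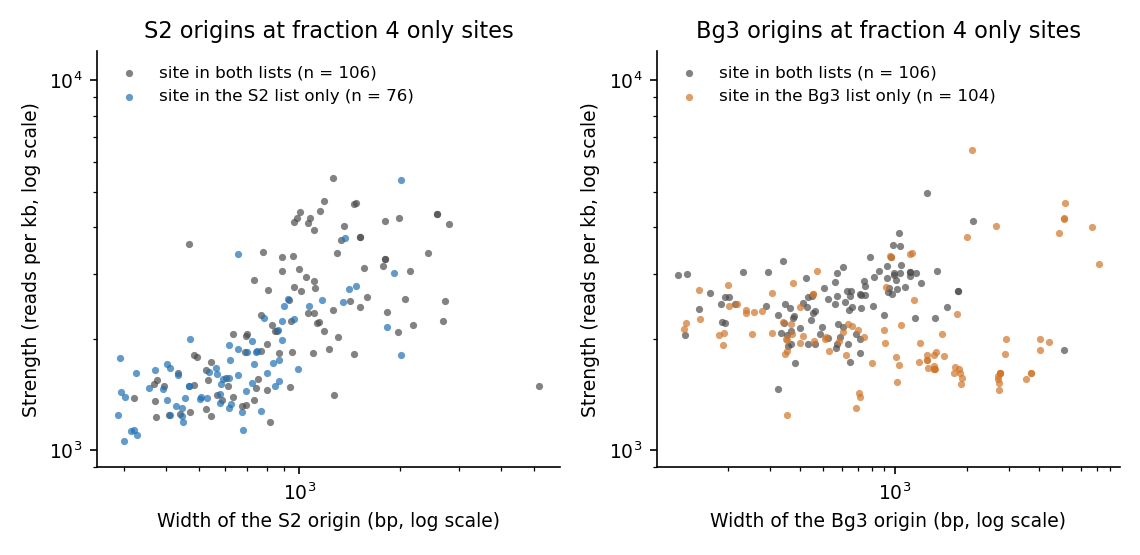
Width (bp) and strength (reads per kb), both on log axes, of the strongest pooled origin at each short-strand-only site, for S2 (left) and Bg3 (right). Points are sites, grey where both pooled lists hold the site. In S2 strength goes up with width, and in Bg3 the orange points at 1000 to 3999 bp lie mostly below the grey ones, with medians of 1689 and 2986 reads per kb.

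The densest 100 kb window shows such origins. It lay on 3L from 19700001 to 19800000 and held 8 short-strand-only sites among its 9 fraction 4 regions, with 1 fraction 5 and 1 fraction 6 region. The Bg3 list had 9 origins in this window and the S2 list 2. All 8 sites were in the Bg3 list and 0 in the S2 list, with gaps of 10338 to 44086 bp to an S2 origin. The strongest Bg3 origins at them were 5 origins of 1369 to 2763 bp with 1455 to 1667 reads per kb, the 1.7th to 6.0th percentile of that list. For example, the sites at 19766486 and 19767468 lay in 1 Bg3 origin of 2763 bp, from 19766387 to 19769149, and the site at 19765852 to 19766393 met only its edge. Without this window the Bg3 share of the sites was 37.3% in place of 38.3%, and the Bg3 share of sites in 1 line was 55.8% (48.3 to 63.0) in place of 57.8%. In the 35 windows with at least 3 sites, 32 sites were in Bg3 alone and 10 in S2 alone, and in all other windows 72 and 66. The 32 include the 8 sites of the densest window, some of which share an origin, so they are not separate cases. These windows were picked by their number of sites, and no such counts are given here for shared fraction 4 regions.

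The sites with the highest Bg3 strength were all on 2R. The first, at 18730968 to 18731330, was 363 bp wide, lay in a Bg3 origin of 2093 bp with 6479 reads per kb, and missed the nearest S2 origin by 540 bp. The second, at 2169934 to 2171186, had 4943 reads per kb in Bg3 and 2535 in S2. The other 3, at 19291653, 3751887 and 2469404, were 462 to 1098 bp wide and lay within Bg3 origins of nearly equal width, 5133, 5123 and 5083 bp, with 4649, 4237 and 4219 reads per kb. All 3 were absent from S2, 6307 to 20239 bp from an S2 origin. Bg3 origins of 4000 bp or more held 10 of the 210 sites in that list, 9 of them absent from S2. On the arms 123 Bg3 origins were this wide, 2.23% of the list. Wider origins meet more sites by construction, and no share of shared regions is given here, so the 10 cannot be called many or few.

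Of the 5 sites farthest from the other fractions 1 was in a pooled list, although of all 69 sites at 20 kb or more 38 were (55.1%). On 3L, sites at 10408830 to 10409186 and 10409429 to 10410414 lay 167289 and 167888 bp from the nearest fraction 5 or 6 region. The second of them was in Bg3, at a weak origin of 1395 reads per kb, and had a gap of 28536 bp to S2 origins. The next 3, on 2L at 18409292 and 18410321 and on 3R at 22783409, lay 50106, 48997 and 48513 bp away and were in neither list. The 2 sites on 2L were 619 bp apart.

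Of the 57 sites of 1000 bp or more, 37 were in a pooled list (64.9%), beside 82.7% of 446 shared regions of these widths. The difference was -17.8 points (-31.2 to -6.11). Of the 99 sites under 1 kb from another fraction, 62 were in a pooled list (62.6%), beside 52.1% of all 549 sites. The single extremes varied. Of the 3 widest, those on 3L at 16037319 and 3R at 25598851 were in neither list, the second missing the nearest Bg3 origin by 115 bp. The third, on 2L at 3046269 to 3048470 (2202 bp), overlapped an S2 origin of 2725 reads per kb. Of the 3 nearest to another fraction, the site on 2L at 2116443 to 2118229 lay in both lists, within S2 and Bg3 origins of 5182 and 5125 bp that also held fraction 5 or 6 regions. The sites on 3L at 17508002 and 11718705 were in neither, and the first of these abutted an S2 origin without overlapping it.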

How the data were processed

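Short nascent strands from 2 Drosophila cell lines had been sequenced, and the 9 samples are represented by 5 deposited lists of origins. MACS 1.4.1, SAMtools 0.1.19, Bowtie2 2.2.0 and the dm3 build are named in the submitters' processing notes. Settings, total depth and how libraries were combined were not stated in the labels. Strength, deposited by the authors as efficiency, is a signal. Multiplied by width in kb it came out whole, within 0.001, at 100% of the S2 and 0.280% of the Bg3 origins, which is why it is read as reads per kb and why the 2 scales are kept apart. Reads carried no molecular identifiers in these files. No list held a value for each replicate, so intervals cover counting error only.

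Regions shared 1 bp or more when called overlapping, widths were end minus start plus 1, and gaps are the bases between 2 regions. Shares have Wilson intervals, differences of shares Newcombe intervals, and medians exact order-statistic intervals. Ratios of medians have the outer limits of both medians' intervals. Shares of positions were computed over all positions without sampling. Percentiles of strength are over the origins on the arms. The functions were tested on simulated data. Python 3.11.15, pandas 2.3.3 and scipy 1.17.1 were used. Named sites followed a rule: the 5 strongest in each pooled list, the 5 farthest from and 3 nearest to the other fractions, the 3 widest, up to 5 strongest in both lists, and the densest 100 kb window. The sites and comparisons were chosen with earlier results of these data known. Comparison values for shared regions and for all origins by strength, and the contrasts by strength percentile, gap and width class were added after values were seen.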

Additional observations from a re-analysis of the deposited data

Results flagged for a closer look

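Fraction 4 regions that met no fraction 5 or 6 region also occurred outside the arms and ends used above, and the comparisons above did not use them. On the X there were 44 such regions under 4000 bp, 14.6% of its fraction 4 regions (11.0 to 18.99), of which 7 were in the S2 list (15.9%, 7.93 to 29.4) and 22 in the Bg3 list. The heterochromatic scaffolds held 170, 19.7% of theirs (17.2 to 22.5), with 25 in S2 (14.7%, 10.2 to 20.8) and 57 in Bg3 (33.5%, 26.9 to 40.9). The end of 3L held 27, with 2 in S2 and 12 in Bg3, and the end of 2L held 39, with 8 in S2 and 5 in Bg3. Chromosome 4 held 7, with 0 in S2 and 1 in Bg3. All fraction 4 regions of the same places under 4000 bp were in S2 and Bg3 at 64.2% and 51.3% on the X, 53.6% and 64.4% on the scaffolds, 53.6% and 63.4% at the end of 3L, 52.6% and 36.4% at the end of 2L, and 41.2% and 43.1% on chromosome 4. On the scaffolds and at the ends of 2L and 3L the list with more of these regions was therefore also the one with more of all fraction 4 regions, whereas on the X the order was opposite. No difference was tested.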

How the results depend on the processing

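No paired analysis was possible because the lists pool replicates 1 and 2 of each line and hold no value for either. Of 135 recomputed values, 113 stayed within the interval or margin of the reported value, 19 moved beyond it and 3 turned. Over all sequences the rule gave 836 sites in place of 549. The share in S2 (33.2%) was 23.9% when 50% of both regions had to overlap, 22.0% when only pooled origins at or above their median strength counted, and 28.5% for fraction 4 regions of 600 bp or less. Under these 3 settings the share in Bg3 (38.3%) was 20.04%, 19.9% and 31.2%, and the share in either list (52.1%) was 33.2%, 29.7% and 45.3%. The difference from shared regions in S2 (-39.5 points) was then -32.6, -33.7 and -44.2 points. With 50% of the site covered the Bg3 share was 31.1% and that in either list 47.0%, and with a gap of up to 500 bp allowed they were 45.2% and 59.6%. The Bg3 share of sites in 1 line (57.8%) was 49.1% with 50% of the site covered, 41.5% with 50% of both and 43.8% with the stronger origins, which are the 3 values that turned. The S2 share was 31.7% with 50% of the site covered, so the order of the S2 and Bg3 shares turned under the same 3 settings. Merging regions within 1 kb gave a Bg3 difference of -18.1 points and a median gap to fraction 5 of 6976 bp. Leaving out each arm gave shares of 31.4 to 35.0% in S2 and 36.5 to 42.3% in Bg3, and 24.5 to 28.6% of S2 origins held by fraction 4 alone above the 90th percentile. The causes were not tested. The fraction lists give no depth, so absence from fractions 5 and 6 may not be read as absence of longer strands, and each cell line is a single pooled list.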
